A study of Mus musculus with 15 samples.

Results

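The expression of 10 genes of the Notch pathway was examined in the suprachiasmatic nuclei (SCN) of mice: the receptor genes Notch1 and Notch2, the ligand genes Dll1 and Jag1, the nuclear mediator gene Rbpj and the transcriptional repressor genes Hes1, Hes5, Hes6, Hey1 and Hey2. They were taken by name from the 24419 genes of a table of RNA sequencing read counts, and all 10 were among the 16910 genes tested. The SCN, a pair of small nuclei of the hypothalamus, are the site of the master circadian clock. Mice that lack the nuclear receptors REV-ERB alpha and REV-ERB beta, labelled double knockout (DKO), were set beside controls, all on a C57BL/6 background and 8 to 12 weeks old. Tissue was taken at circadian time (CT) 4 h, in the subjective day, or 16 h, in the subjective night. Control mice gave 3 libraries at CT4 and 5 at CT16, DKO mice 3 and 4, and each library was made from 2 to 4 pooled punches. Not given in the sources used here are the alleles, any Cre driver, the cells in which the receptors were lost and which mice share a pool.

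In the Notch pathway a ligand on a cell, of the Delta-like or Jagged family, binds a Notch receptor on its neighbour. The receptor is then cut, last by the gamma-secretase complex, and its freed intracellular part enters the nucleus, joins the DNA-binding protein RBPJ and switches on genes, among them many of the Hes and Hey family. Hes and Hey proteins are basic helix-loop-helix (bHLH) repressors; in the adult brain Hes5 is known from astrocytes and neural stem cells, Notch4 and Dll4 from blood vessels. Hes6 is an exception within its family, known to counteract Hes1 and to favour neuronal differentiation. REV-ERB receptors repress genes of the clock through DNA elements that the ROR receptors also bind.

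Of the 10 genes, 2 passed the test between genotypes at CT16 and moved in opposite directions. Hes5 fell to 4.95 ± 1.68 CPM (read count scaled to library size by TMM, SD, n = 4) in DKO from 9.66 ± 1.64 CPM (SD, n = 5) in control, and Hes6 rose to 23.0 ± 2.05 from 17.3 ± 0.791 CPM. At night, compared with day, Hes5, Hes1 and Jag1 fell in control and Hes5 fell in DKO. The receptors, Dll1, Hey1, Hey2 and Rbpj did not pass the test in any comparison. Of all tested genes, 4.66% passed between genotypes at CT16, 4.21% between times in control and 1.80% between times in DKO. At CT4, Hes5 and Hes6 lay on the same sides of control without overlap and did not pass. For none of the 10 genes was a difference between times in the effect of genotype shown. Differences are log2 fold changes ± standard error (SE) from 1 model of the 15 libraries (edgeR quasi-likelihood test), and a call means a p under 0.05 after Benjamini-Hochberg adjustment over the 16910 genes. Because the tissue was sequenced in bulk, fewer cells of a type and less RNA per cell cannot be told apart.

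The promoters of Hes5, Hes6 and Hey2 are printed because Hes5 and Hes6 differed between genotypes in opposite directions and Hey2, another repressor of the family, did not pass. Each runs from 250 bases before to 50 bases after a start annotated by RefSeq on GRCm38.p6, the assembly behind mm10, the build named for the counts. Capitals mark matches, on either strand, to the core of the RBPJ site (TGGGAA), the N-box bound by Hes proteins (CACNAG), the E-box (CACGTG) and the half-site of the element shared by REV-ERB and ROR (AGGTCA).
Hes5, plus strand, chr4:154960673-154960972: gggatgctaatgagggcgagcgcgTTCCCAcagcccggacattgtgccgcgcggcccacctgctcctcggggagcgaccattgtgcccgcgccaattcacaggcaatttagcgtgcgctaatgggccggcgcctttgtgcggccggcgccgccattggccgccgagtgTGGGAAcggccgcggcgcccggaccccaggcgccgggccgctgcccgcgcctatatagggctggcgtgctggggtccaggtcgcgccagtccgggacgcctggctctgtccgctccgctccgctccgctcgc
Hes6, downstream of its 2 annotated starts, minus strand, chr1:91413173-91413472: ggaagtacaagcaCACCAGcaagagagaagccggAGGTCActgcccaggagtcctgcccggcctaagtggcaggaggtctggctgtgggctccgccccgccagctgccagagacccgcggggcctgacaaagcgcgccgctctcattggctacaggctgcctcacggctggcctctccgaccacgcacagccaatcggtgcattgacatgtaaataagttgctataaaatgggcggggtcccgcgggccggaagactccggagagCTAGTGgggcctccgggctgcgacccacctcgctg
Hey2, minus strand, chr10:30842734-30843033: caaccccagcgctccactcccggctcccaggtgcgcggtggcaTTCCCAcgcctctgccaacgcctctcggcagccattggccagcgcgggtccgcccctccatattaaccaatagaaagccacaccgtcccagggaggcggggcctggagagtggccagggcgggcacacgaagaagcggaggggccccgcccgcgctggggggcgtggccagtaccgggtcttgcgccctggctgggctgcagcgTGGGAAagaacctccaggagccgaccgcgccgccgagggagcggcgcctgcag
The Hes5 window held 2 RBPJ cores, at 226 bases before the start on the opposite strand and at 82 bases before it on the gene's strand, and none of the other motifs. In the window of Hes6 there was no RBPJ core, but 2 N-boxes and 1 REV-ERB and ROR half-site, the latter at 216 bases before the start. Hey2 held 2 RBPJ cores. These matches describe the letters of the window and are not shown to be bound.

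RefSeq windows were found for 8 of the 10 genes, 11 windows in all, since Dll1, Hes6 and Rbpj have 2 starts each; Hes1 and Hey1 had no entry. The RBPJ core was in 4 of the 11, those of Hes5, Hey2 and both of Rbpj, which overlap and share a match. It occurred in 25.6% of all 32851 promoter windows of this length. N-boxes were in 4 of the 11, against 42.5% of all windows, and the half-site in 2, those of Hes6 and Dll1, against 16.3%. The E-box, through which the clock activators act, was in none, against 7.15% of all. No match overlapped one of another motif, and 2 of the N-boxes of Notch1, on opposite strands, overlapped each other.

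**Figure D1:**
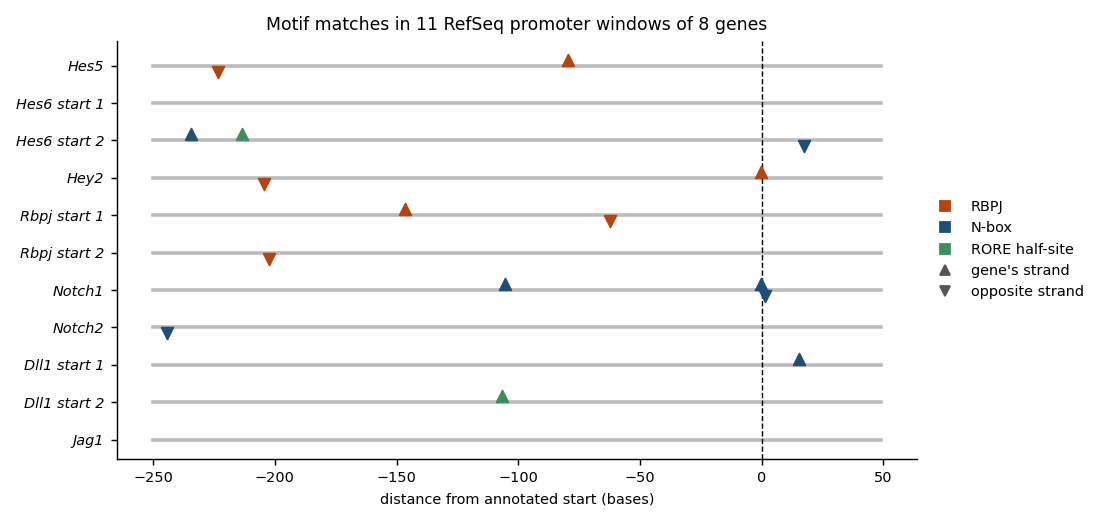
Motif matches in the 11 promoter windows of 8 genes, by distance in bases from the annotated start (dashed line). Triangles pointing up lie on the gene's strand and those pointing down on the opposite strand. RBPJ cores lie only in the windows of Hes5, Hey2 and Rbpj, and the upstream window of Hes6 and that of Jag1 hold no match.

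Levels can be compared between genes only per length of exon. In control SCN at CT4, Hes6 stood highest of the 10 at 15.1 ± 0.896 RPKM (CPM per kilobase of exon, SD, n = 3), followed by Hes5 at 14.5 ± 0.603, with overlapping libraries. Hey1 followed at 11.9 ± 1.48, Rbpj at 7.37 ± 0.646 and Notch1 at 6.36 ± 0.650 RPKM, the last 2 overlapping. Below them stood Notch2 at 5.20 ± 0.212, Hes1 at 4.34 ± 0.504, Hey2 at 3.49 ± 0.282, Dll1 at 3.44 ± 0.359 and Jag1, lowest in each of the 4 groups, at 2.03 ± 0.104 RPKM. Libraries of Hes1 overlapped those of Hey2, and those of Hey2 overlapped those of Dll1. Hes6 was first in all 4 groups. Hes5 went from place 2 in control at CT4 to place 3 in DKO at CT4 and in control at CT16, and to place 7 in DKO at CT16, at 3.89 ± 1.32 RPKM (n = 4). There its libraries overlapped those of Hey2 and Hes1, its neighbours in the order.

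**Figure D2:**
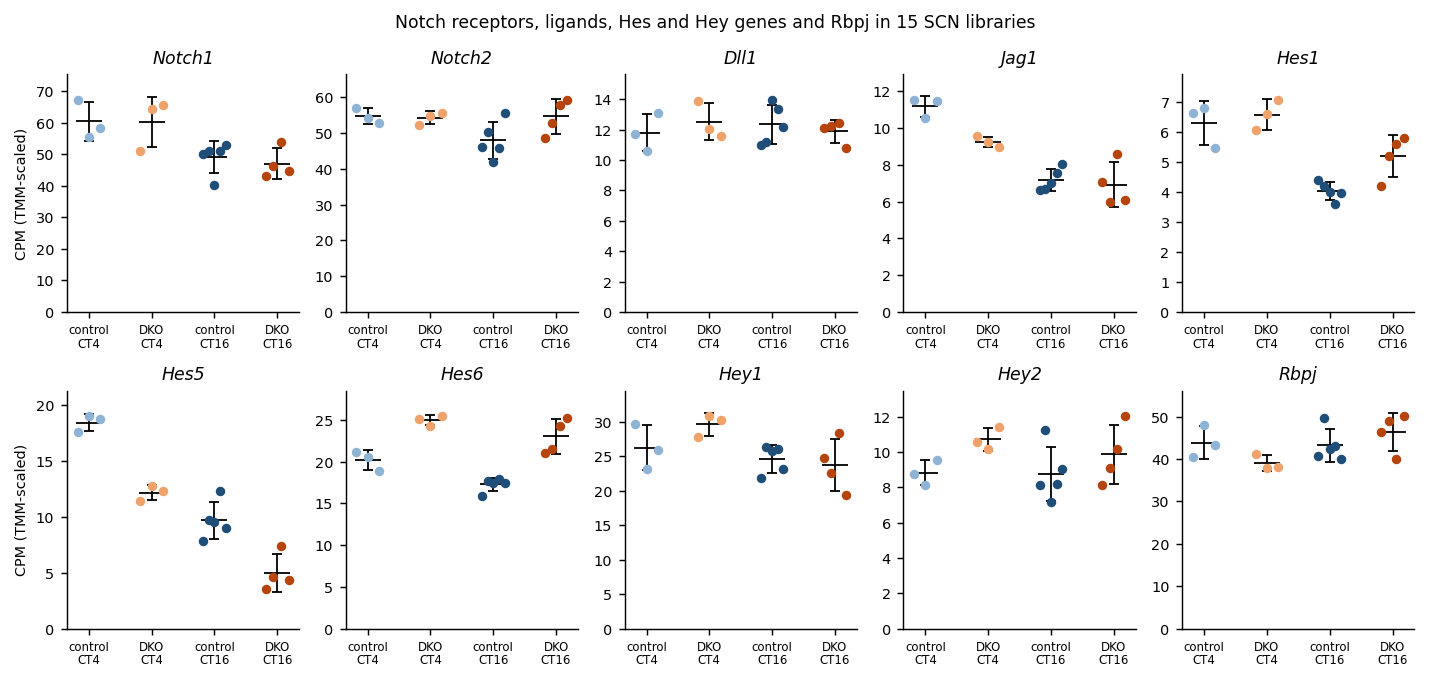
Expression of the 10 genes in CPM (vertical axes from 0) in each library, by group; horizontal bars are group means and whiskers SD. The mean of Hes5 is lower in each step from control CT4 (17.5 to 19.0 CPM) to DKO CT16 (3.51 to 7.36 CPM). Libraries of DKO CT4 and control CT16 overlap for Hes5. Hes6 is higher in DKO than in control at each time.

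Libraries held 32580803 to 68757624 counts, and each of the 10 genes had 142 to 3997 counts in each library. The messages of the receptors, Nr1d1 and Nr1d2, were not lower in DKO. They could not check the genotype, as the table sums all exons and the alleles are not given. Nr1d1 lay at 241 to 378 CPM in DKO and 135 to 150 CPM in control at CT16, and its groups overlapped at CT4. Nr1d2 lay at 163 to 181 CPM in DKO and 116 to 130 CPM in control at CT4, and at 198 to 259 and 96.7 to 118 CPM at CT16. All 12 SCN neuron markers listed, such as Six6, Lhx1 and Vip, were detected in every library, and so were those of the other cell types. Their summed level was 858 to 901 CPM in DKO and 1016 to 1113 CPM in control at CT4, and 781 to 1258 against 504 to 1083 CPM at CT16. Markers of neighbouring nuclei summed to 1023 to 1110 CPM in DKO and 549 to 990 CPM in control at CT4. There 14 of the 16 were higher in DKO, with a median log2 fold change of 0.80. None of the 16 was called or at an unadjusted p under 0.05 by edgeR at CT4, and none was called by DESeq2 or limma voom. At CT16 they summed to 510 to 987 CPM in DKO and 881 to 1204 CPM in control. DKO CT16 replicate 3 stood apart from the other DKO libraries of that time in its score for these nuclei (mean of centred log2 CPM), at 0.98 against -1.16 to -0.87. Control CT4 replicate 1, at 0.65, likewise stood apart from the other 2 controls, at -0.75 and -0.36, and DKO CT16 replicate 4 had the most oligodendrocyte RNA, 19851 CPM over 10 markers.

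The comparison of DKO with control at CT16 asked which transcripts differ without REV-ERBs in the subjective night. Hes5, chromosome 4 (154960923 to 154962371, plus strand, mm10), was read at 3.51, 4.61, 7.36 and 4.30 CPM in DKO replicates 1 to 4. In control replicates 1 to 5 it was read at 7.82, 9.74, 9.51, 12.3 and 8.96 CPM. Each DKO library was below each control library, and the gap was narrow, with DKO replicate 3 at 7.36 just under control replicate 1. The difference was -0.96 ± 0.17 (1.95-fold lower, adjusted p = 0.00400). Without DKO replicate 3, the library with the high score for neighbouring nuclei, it was -1.23 ± 0.13. In GENCODE M21 a transcript on the opposite strand, Gm20421, overlaps 34.0% of the exonic bases of Hes5, and since the strand setting is not given, its reads cannot be told from those of Hes5.

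Hes6, chromosome 1 (91411483 to 91413222, minus strand), was read at 21.0, 21.5, 24.3 and 25.2 CPM in DKO replicates 1 to 4. In control replicates 1 to 5 it was read at 15.9, 17.6, 17.5, 17.9 and 17.5 CPM. The groups did not overlap, and Hes6 rose by 0.41 ± 0.07 (1.33-fold, adjusted p = 0.00114). No annotated gene overlaps its exons. Of the 10 genes, 1 rose and 1 fell, where 2.83% of all tested genes rose and 1.83% fell, 4.66% in all. The median difference of the 10 was 0.03, against 0.00 over all tested genes. Without overlap between genotypes were these 2 alone, against 6.97% of all tested genes.

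Both calls stood in each of 25 alternatives. Hes5 ranged from -1.26 to -0.83 and Hes6 from 0.30 to 0.45. The largest adjusted p over these fits was 0.042 for Hes5 and 0.0403 for Hes6, both near the threshold. Without the 3 libraries that stand apart in tissue markers (control CT4 replicate 1, DKO CT16 replicates 3 and 4), Hes5 stood at -1.26 ± 0.16 (adjusted p = 0.000258) and Hes6 at 0.30 ± 0.07 (adjusted p = 0.0403, edgeR). With the astrocyte score as a covariate they stood at -1.02 ± 0.20 and 0.38 ± 0.07. With the scores for SCN neurons and neighbouring nuclei as covariates the values were -0.90 ± 0.16 and 0.43 ± 0.07.

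**Figure D3:**
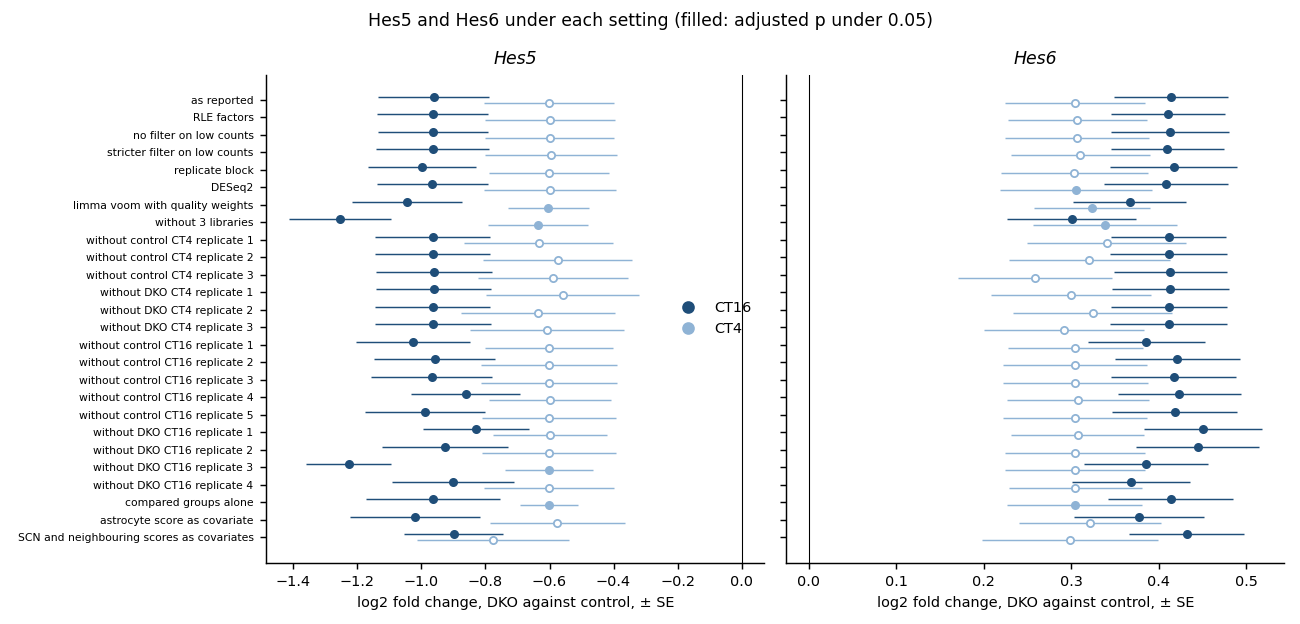
Log2 fold changes ± SE of Hes5 and Hes6, DKO against control at CT16 and CT4, as reported and under each alternative; filled points have an adjusted p under 0.05. At CT16 each point is filled, with Hes5 between -1.26 and -0.83; at CT4 most are open.

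Astrocytes are a known site of Hes5, and 10 of their 14 markers were above 0 at CT16, with a median of 0.20 and 7 at an unadjusted p under 0.05. Gja1, a gap junction gene, rose by 0.32 ± 0.07, Agt, which encodes angiotensinogen, rose by 0.40 ± 0.10, Aldh1l1, a folate enzyme gene widely used to mark astrocytes, fell by 0.35 ± 0.06, and 11 did not pass. Their summed level was 4758 to 5611 CPM in DKO and 4669 to 5677 CPM in control, so the groups overlapped. In the same libraries the median difference of the 10 oligodendrocyte markers was 0.72, with none called by edgeR, 2 at an unadjusted p under 0.05, 1 called by DESeq2 and 0 by limma voom, and their part in the result was not tested. All 10 oligodendrocyte markers were above 0. Of 12 markers of ependyma and tanycytes 2 rose, with a median of 0.18, and of the 12 SCN neuron markers 2 rose, with a median of 0.09. Of the 16 markers of neighbouring nuclei 11 were below 0, with a median of -0.40. There edgeR called 0, with 4 at an unadjusted p under 0.05, DESeq2 called 3 and limma voom 1. The 10 microglia markers were all above 0, with a median of 0.19 and none called by edgeR, DESeq2 or limma voom.

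Hes1, the founding member of the family and a classical RBPJ target, lay at 4.20, 5.21, 5.60 and 5.80 CPM in DKO and 3.62 to 4.41 CPM in control at CT16. DKO replicate 1 lay inside the control range and the other 3 above it, and the difference of 0.36 ± 0.12 did not pass (adjusted p = 0.0913). It passed with DESeq2 (adjusted p = 0.0465) and without DKO replicate 1 (0.45 ± 0.11, adjusted p = 0.0239), in 2 of 25 alternatives. These 2 fits called 7.8% and 7.83% of all genes they tested. Without the 3 libraries Hes1 stood at 0.22 ± 0.15. Among the receptors, Notch2 lay at 48.7 to 59.3 CPM in DKO and 41.9 to 55.4 CPM in control (0.19 ± 0.07, adjusted p = 0.160). Notch1 lay at 43.1 to 53.9 and 40.4 to 53.0 CPM (-0.06 ± 0.09). The ligands Dll1 (-0.05 ± 0.09) and Jag1 (-0.05 ± 0.11), the mediator Rbpj (0.10 ± 0.08) and the repressors Hey1 (-0.05 ± 0.10) and Hey2 (0.17 ± 0.13) had overlapping groups. Processed pseudogenes of Rbpj are annotated in the mouse, and how reads shared with them were counted is not given. Antisense transcripts of GENCODE M21 also overlap 13.7% of the exonic bases of Dll1 and, the larger of 2, 11.3% of those of Notch1, and a transcript on the same strand overlaps 5.15% of those of Notch2.

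Of 59 other tested genes of the pathway, 3 rose, 3 fell and 53 did not pass at CT16, and their median difference was 0.01. By role, 1 of 7 ligands fell, 1 of 15 processing genes rose and 1 fell, 2 of 13 trafficking genes rose and 1 of 6 other targets fell. Neither of the 2 other receptors passed with edgeR, DESeq2 or limma voom or had an unadjusted p under 0.05. Of the 16 nuclear cofactors edgeR called 0, DESeq2 1 and limma voom 1, and 2 had an unadjusted p under 0.05. Of all genes they tested at CT16, edgeR called 4.66%, DESeq2 7.8% and limma voom 6.99%. Nrarp, a target that in turn dampens Notch signalling, fell by 0.32 ± 0.08 (23.5 to 25.4 CPM in DKO, 27.1 to 35.9 in control). Dlk2, a ligand gene without the domain that activates receptors, fell by 0.34 ± 0.08, with separate groups. Lfng, which encodes a sugar transferase that tunes the response of receptors to ligands, fell by 0.27 ± 0.07.

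The gamma-secretase subunit gene Aph1a rose by 0.29 ± 0.07, and the ubiquitin ligase genes Dtx1 and Dtx4 of the Deltex family by 0.21 ± 0.04 and 0.19 ± 0.05. Dtx1 lay at 200 to 201 CPM in DKO and 161 to 186 CPM in control. Its call was lost in 1 of 25 alternatives, those of Nrarp and Dlk2 in 7, that of Lfng in 8 and those of Aph1a and Dtx4 in 9. Without the 3 libraries that stand apart, the calls of Nrarp, Dlk2, Aph1a and Dtx1 were among those lost. Of 13 bHLH and Id genes, Id2 alone passed, with a rise of 1.10 ± 0.10 (adjusted p = 1.38e-05) that was kept in all 25 alternatives. Id2 encodes a partner of bHLH proteins that cannot bind DNA, and it lay at 67.2 to 102 CPM in DKO and 33.9 to 42.4 CPM in control.

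**Figure D4:**
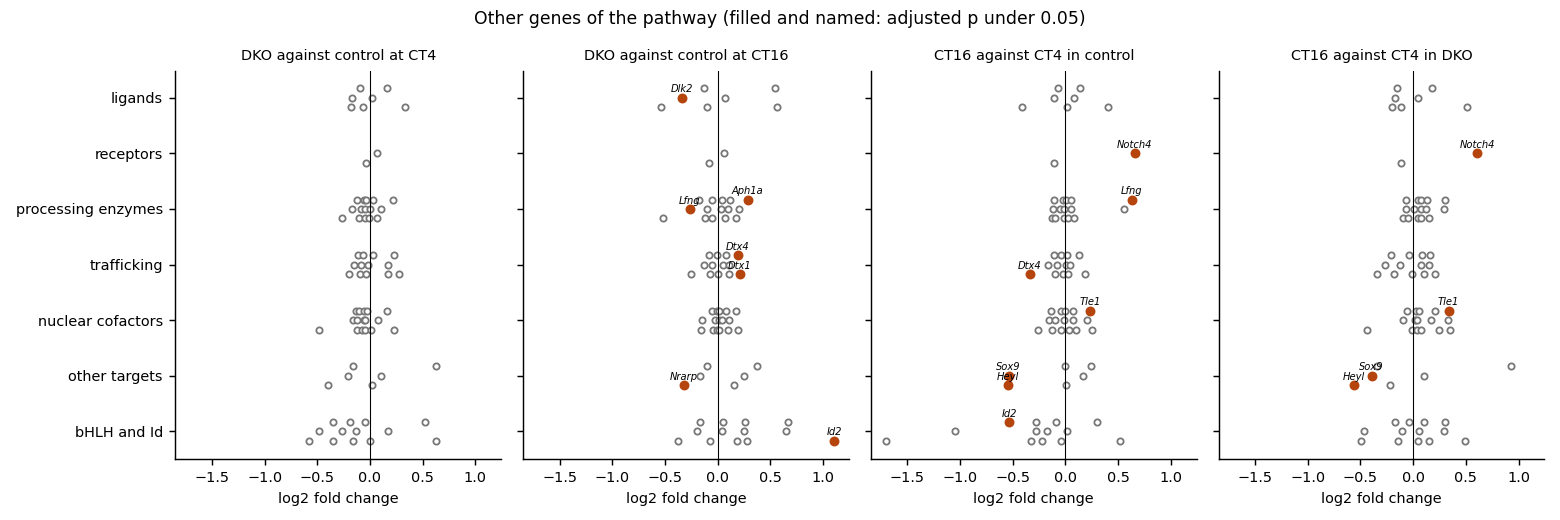
Log2 fold changes of the other Notch pathway genes by role, and of bHLH and Id genes, in 4 comparisons (horizontal axis). Filled and named points have an adjusted p under 0.05, and points are offset vertically for legibility alone. At CT16 the largest called value is the rise of Id2 by 1.10; at CT4 no point is filled.

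In the subjective day, at CT4, Hes5 and Hes6 lay on the same sides of control as at night, and neither passed. Hes5 was read at 11.4, 12.7 and 12.3 CPM in DKO and at 17.5, 19.0 and 18.7 CPM in control, replicates 1 to 3 of each. The groups were well apart, and the difference was -0.60 ± 0.20 (adjusted p = 0.174). Hes6 was read at 25.1, 24.3 and 25.5 CPM in DKO and at 21.2, 20.6 and 18.9 CPM in control (0.30 ± 0.08, adjusted p = 0.0715). Fitted on the CT4 libraries alone, where 5.12% of all tested genes were called, both passed, Hes5 at -0.60 ± 0.09 (adjusted p = 0.00265) and Hes6 at 0.30 ± 0.08 (adjusted p = 0.0388). Hes5 also passed without DKO CT16 replicate 3 (-0.60 ± 0.14, adjusted p = 0.0354), where 1.95% of all tested genes were called.

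None of the 10 genes was called at CT4 by edgeR, where 1.28% of all tested genes were, 0.574% higher and 0.71% lower. DESeq2 called 1 and limma voom 2, where they called 3.59% and 5.02% of all genes they tested. By edgeR 2 had an unadjusted p under 0.05. Such values were frequent over all tested genes, as Jag1, at an unadjusted p of 0.0534 (edgeR), ranked 2600 of 16910. Jag1 and Hey2 also had groups that did not overlap, 4 of the 10 in all, against 25.4% of all tested genes. Jag1 lay at 8.99 to 9.55 CPM in DKO and 10.5 to 11.5 CPM in control (-0.27 ± 0.13, adjusted p = 0.347). Hey2, a repressor known from heart and vessels, lay at 10.2 to 11.4 and 8.16 to 9.58 CPM (0.28 ± 0.16, adjusted p = 0.435). The receptors stood near 0, Notch1 at -0.00 ± 0.12 and Notch2 at -0.01 ± 0.09. Dll1 (0.09 ± 0.11), Hes1 (0.06 ± 0.14), Hey1 (0.17 ± 0.12) and Rbpj (-0.17 ± 0.09) had overlapping groups.

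No other pathway gene was called at CT4 by edgeR among 59, of which 11 had an unadjusted p under 0.05, and DESeq2 called 3 and limma voom 4. Of the 13 bHLH and Id genes edgeR called 0, with 3 at an unadjusted p under 0.05, DESeq2 1 and limma voom 2. Id2 stood at 0.52 ± 0.12 (adjusted p = 0.0578). Markers of SCN neurons differed in median by -1.19 at CT4, with none of 12 called by edgeR, 9 at an unadjusted p under 0.05, 5 called by DESeq2 and 4 by limma voom. Those of neighbouring nuclei differed by 0.80, with 14 of 16 above 0, and those of ependyma and tanycytes by 0.20, with 11 of 12 above 0. No marker of these last lists was called by edgeR, DESeq2 or limma voom, and the part of ependyma and tanycytes was not tested. With the scores for SCN neurons and neighbouring nuclei as covariates, Hes5 stood at -0.78 ± 0.24 and Hes6 at 0.30 ± 0.10. Summed astrocyte markers lay at 5160 to 5391 CPM in DKO and 5319 to 5638 CPM in control.

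**Figure D5:**
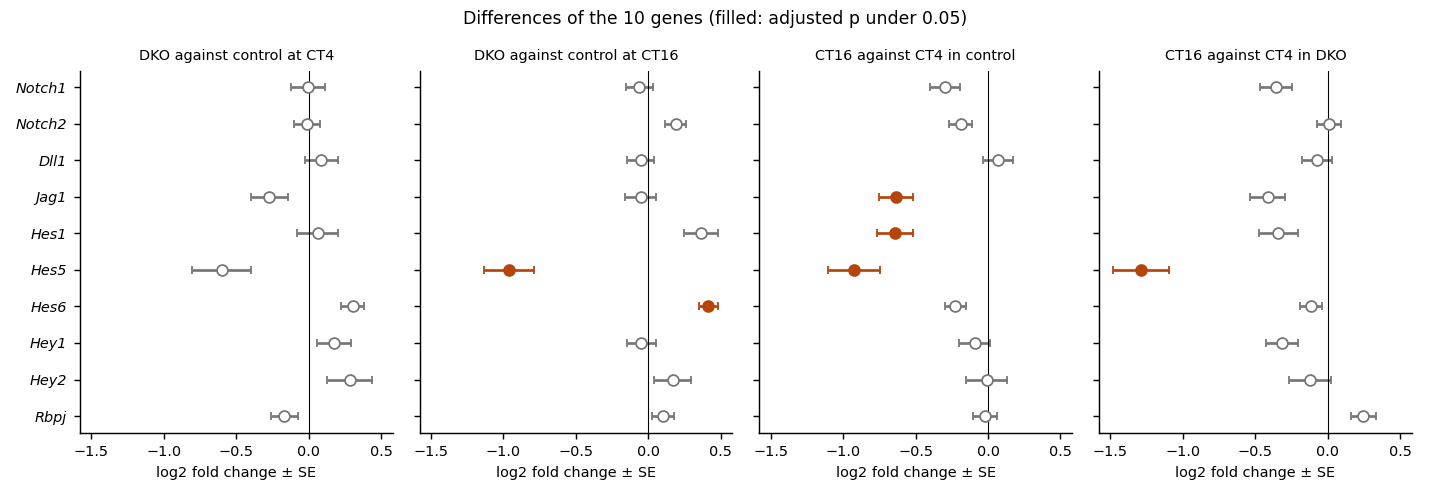
Log2 fold changes ± SE of the 10 genes in the 4 comparisons between groups; filled points have an adjusted p under 0.05. Hes5 lies left of 0 in each comparison and is filled in 3 of 4, and Hes6 is filled at CT16 between genotypes.

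The difference between day and night was then read within each genotype. In control, Hes5 fell from 17.5 to 19.0 CPM at CT4 to 7.82 to 12.3 CPM at CT16, by 0.93 ± 0.18 (1.90-fold lower, adjusted p = 0.00896). Jag1, chromosome 2 (137081451 to 137116520, minus strand), was read at 11.5, 10.5 and 11.5 CPM at CT4 and at 6.64, 6.70, 7.00, 7.56 and 8.06 CPM at CT16. Its groups were clearly apart, and it fell by 0.63 ± 0.11 (1.55-fold lower, adjusted p = 0.00591). Hes1, chromosome 16 (30065357 to 30067796, plus strand), was read at 6.63, 6.80 and 5.46 CPM at CT4 and at 4.41, 4.19, 4.01, 3.62 and 3.97 CPM at CT16. Each night library was below each day library, and Hes1 fell by 0.64 ± 0.13 (adjusted p = 0.00911).

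The call of Jag1 stood in all 25 alternatives. That of Hes1 was lost in 5, among them without control CT4 replicate 1 (-0.61 ± 0.15, adjusted p = 0.0519) or replicate 2 (-0.58 ± 0.14, adjusted p = 0.0604) and with the astrocyte score as a covariate (-0.51 ± 0.15, adjusted p = 0.126). That of Hes5 was lost with the astrocyte score alone (-0.84 ± 0.24, adjusted p = 0.104). With the scores for SCN neurons and neighbouring nuclei as covariates, the call of Hes1 was lost as well (-0.58 ± 0.18, adjusted p = 0.115).

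Markers of several cell types were lower by night in the same control libraries. Of the 14 astrocyte markers 2 fell, with a median of -0.20, and their summed level was 5319 to 5638 CPM at CT4 and 4669 to 5677 CPM at CT16. Of the 12 SCN neuron markers 3 fell, 11 were below 0 and the median was -0.56. This list includes genes such as Avp, Nms, Prok2 and Rgs16, and in it cell number and level per cell cannot be told apart. Of the 10 microglia markers 2 fell, all 10 were below 0 and the median was -0.41, with summed levels of 328 to 392 CPM at CT4 and 271 to 311 CPM at CT16 that did not overlap. Of the 12 endothelial markers 9 were below 0, with 2 called lower, 1 called higher and 6 at an unadjusted p under 0.05 (edgeR). Of 8 markers of mural cells of the vessel wall 6 were below 0, with 1 called lower and 4 at such a p. The parts of microglia and of vessel cells in the falls of Hes5, Hes1 and Jag1 were not tested.

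Of the 10 genes 3 fell and none rose, where 2.08% of all tested genes fell and 2.13% rose, 4.21% in all. Their median was -0.21, against -0.01 over all tested genes.

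Notch1 lay at 55.5 to 67.3 CPM by day and 40.4 to 53.0 CPM by night without overlap (-0.30 ± 0.10, adjusted p = 0.115), as did Hes6 at 18.9 to 21.2 and 15.9 to 17.9 CPM (-0.23 ± 0.07, adjusted p = 0.0861). That makes 5 of the 10 without overlap, against 15.8% of all tested genes. Notch2 (-0.19 ± 0.08), Hey1 (-0.09 ± 0.11), Rbpj (-0.02 ± 0.08), Hey2 (-0.01 ± 0.14) and Dll1 (0.07 ± 0.10) overlapped between times.

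In DKO, Hes5 fell from 11.4 to 12.7 CPM at CT4 to 3.51 to 7.36 CPM at CT16, by 1.29 ± 0.19 (2.44-fold lower, adjusted p = 0.00291). It was the only gene of the 10 to pass, where 1.80% of all tested genes did, 0.509% of them lower and 1.29% higher. In the fit on the DKO libraries alone, which called 0.287% of the genes it tested, the value of Hes5 was -1.29 ± 0.23 (adjusted p = 0.0664). Between the same libraries the median of the 12 SCN neuron markers was 0.95, with 11 above 0, none called by edgeR, 5 at an unadjusted p under 0.05, 2 called by DESeq2 and 2 by limma voom. That of the 16 markers of neighbouring nuclei was -0.69, with 13 below 0, none called by edgeR, 2 at an unadjusted p under 0.05, 0 called by DESeq2 and 3 by limma voom. Of all genes they tested here, DESeq2 called 5.6% and limma voom 8.17%. Of the 10 microglia markers 2 fell and 9 were below 0. With the scores for SCN neurons and neighbouring nuclei as covariates Hes5 stood at -1.02 ± 0.21 (adjusted p = 0.0332). Jag1 lay at 8.99 to 9.55 CPM by day and 5.96 to 8.59 CPM by night (-0.42 ± 0.12, adjusted p = 0.0877), and Hes1 at 6.07 to 7.09 and 4.20 to 5.80 CPM (-0.34 ± 0.13, adjusted p = 0.184), neither with overlap. With Hes5 that makes 3 of the 10, against 14.7% of all tested genes.

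DKO CT16 replicate 3 weighed on this comparison. Without it the share of all tested genes called went from 1.80% to 8.68%, and 5 of the 10 genes passed: Hes5 (-1.55 ± 0.14), Jag1 (-0.54 ± 0.11), Notch1 (-0.43 ± 0.11) and Hey1 (-0.41 ± 0.10) fell, and Rbpj rose by 0.31 ± 0.08. With it, Notch1 stood at -0.36 ± 0.11, Hey1 at -0.32 ± 0.11 and Rbpj at 0.25 ± 0.09. Hes6 (-0.12 ± 0.07), Hey2 (-0.12 ± 0.15), Dll1 (-0.07 ± 0.11) and Notch2 (0.01 ± 0.08) had the smallest differences.

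Of the 59 other pathway genes 3 rose and 3 fell at night in control, and 2 rose and 2 fell in DKO. Of all tested genes 2.13% rose and 2.08% fell in control, and 1.29% rose and 0.509% fell in DKO. In control, Notch4, the receptor of blood vessels, rose by 0.66 ± 0.13 from 5.65 to 8.58 CPM to 9.91 to 12.4 CPM, and in DKO by 0.61 ± 0.14. Of the 12 endothelial markers 1 rose and 2 fell in control, with a median of -0.13, and 2 fell in DKO, with a median of -0.05, and their part in the rise of Notch4 was not tested. Heyl, a Hey relative known from vessel walls, fell by 0.55 ± 0.09 in control and by 0.56 ± 0.10 in DKO. Of 8 markers of mural cells, which form the vessel wall, 1 fell in control and 0 passed in DKO with edgeR (2 at an unadjusted p under 0.05, 1 called by DESeq2 and 1 by limma voom). Their summed level in control was 121 to 133 CPM by day and 94.2 to 111 CPM by night, and their part in the fall of Heyl was not tested. Sox9, a transcription factor gene of astrocytes and also 1 of the 14 astrocyte markers, fell by 0.54 ± 0.09 and by 0.39 ± 0.09. Tle1, a corepressor that Hes proteins recruit, rose by 0.24 ± 0.06 and by 0.34 ± 0.06.

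Lfng rose at night by 0.63 ± 0.07 in control (33.3 to 34.6 CPM by day and 46.8 to 56.2 CPM by night, adjusted p = 0.000203) and stood at 0.30 ± 0.08 in DKO (adjusted p = 0.0589). Dtx4 fell by 0.34 ± 0.05 in control and stood at -0.18 ± 0.06 in DKO. The difference between genotypes in these changes did not pass for either, at -0.33 ± 0.11 for Lfng (adjusted p = 0.175) and 0.16 ± 0.08 for Dtx4 (adjusted p = 0.341). Id2 fell by 0.53 ± 0.11 in control and stood at 0.06 ± 0.12 in DKO, an interaction of 0.59 ± 0.16 (adjusted p = 0.145). The control calls of Lfng, Dtx4 and Heyl stood in all 25 alternatives, while that of Sox9 was lost in 1, that of Notch4 in 3, that of Id2 in 4 and that of Tle1 in 7. In DKO the calls of Tle1 and Heyl were each lost in 2, that of Notch4 in 7 and that of Sox9 in 8.

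Whether the genotype difference itself changed between times was tested as an interaction. For Hes5 it was -0.36 ± 0.27 (adjusted p = 0.530) and for Hes6 0.11 ± 0.10 (adjusted p = 0.632), so a difference between day and night in the effect of genotype was not shown. For Hes1 it was 0.30 ± 0.18 and for Rbpj 0.27 ± 0.12, whose unadjusted p of 0.0419 was the only value under 0.05 among the 10; with the scores for SCN neurons and neighbouring nuclei as covariates it was -0.052. None was called by edgeR, DESeq2 or limma voom. Of all tested genes edgeR called 0.0118%, all of them higher, DESeq2 2.58% and limma voom 2.5%. Of the 59 other pathway genes none was called by edgeR, DESeq2 or limma voom, and 9 had an unadjusted p under 0.05. Such values were frequent over all tested genes, as Rbpj, at its unadjusted p of 0.0419 (edgeR), ranked 2272 of 16910.

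The gene of smallest p over the comparisons was Hes5, and the 5 tested genes most like it in log2 CPM over the 15 libraries were Rhcg (Pearson r = 0.950), Btbd17 (0.937), Ccdc80 (0.915), Ephb3 (0.914) and Flt3l (0.913). These values describe libraries that share group differences, and were not tested. Rhcg encodes an ammonia transporter of the Rhesus family and Ephb3 a receptor for ephrin-B ligands. At CT16 all 5 were called between genotypes, where 4.66% of all tested genes were. They were picked for likeness to Hes5 over these same libraries, so their calls follow in part from the choice and are no separate support. The differences at CT16 were -1.68 ± 0.30 for Rhcg, -0.61 ± 0.14 for Ccdc80, -0.56 ± 0.12 for Ephb3, -0.49 ± 0.12 for Flt3l and -0.43 ± 0.09 for Btbd17. Rhcg was low there, with a mean of 0.46 CPM in DKO and 1.51 CPM in control. At night in control, Rhcg (-1.14 ± 0.28) and Ephb3 (-0.49 ± 0.13) were called, and Btbd17 (-0.20 ± 0.10), Ccdc80 (-0.33 ± 0.15) and Flt3l (-0.45 ± 0.13) were not.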

How the data were processed

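RNA of pooled SCN punches was sequenced, and the authors deposited a table of whole-number read counts per gene and library, not normalized, with exonic lengths, per the file headers. STAR, featureCounts, DESeq2 and mm10 are named per the submitters' processing notes. Not given in the sources used here are versions, annotation, strand setting and filters.

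The test was run with edgeR 4.0.16 (R 4.3.3): filterByExpr on the 4 groups (16910 of 24419 genes kept), TMM factors, 1 model of 4 group means (11 residual degrees of freedom) and the robust quasi-likelihood test for 5 contrasts. An SE is the absolute log2 fold change over the root of F. RPKM are TMM-scaled CPM per kilobase of exon, and log2 CPM used a prior count of 2. Libraries of a group correlated at 0.9803 to 0.9899, and none were alike within sampling noise (chi-square per degree of freedom from 6.57). P-values measure the spread between pools.

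The alternatives were RLE factors, DESeq2 1.42.0, limma 3.58.1 voom with quality weights, no filter, a filter of at least 1 CPM in 3 libraries, the replicate number as a block, the compared groups alone, 3 libraries left out and each library left out in turn. The 2 fits with marker scores as covariates were added after the data were seen. The 3 libraries left out together were picked by their tissue markers in these same data, and none of them was a control library of CT16. At CT4 the SCN neuron score was -0.55 to -0.41 in DKO and -0.16 to 0.77 in control. A covariate that differs between groups can also take up part of their difference. The 10 genes are named throughout, other listed genes where called, at most 8 per comparison by smallest p, and the 5 genes most like Hes5. The genes and lists were chosen with earlier results of these data known. The steps were tested on counts simulated gene by gene, without the shared differences in tissue markers of these libraries. Recovery was required there only of changes larger than any seen for the 10 genes. That test therefore does not bear on smaller changes or on differences in tissue. Sequences are from RefSeq (GRCm38.p6), overlapping transcripts from GENCODE M21. Figures were drawn with matplotlib 3.10.9.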

Additional observations from a re-analysis of the deposited data

Results flagged for a closer look

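In 2 of 20 sets of 4 or 5 libraries examined, a library lay far from its group by Dixon's criterion, which chance meets in about 1 of 20. In control at CT16, Notch1 was lowest in replicate 3, at 40.4 CPM against 49.9 to 53.0 in the other 4. Hes6 was lowest in control CT16 replicate 1, at 15.9 CPM against 17.5 to 17.9 in the others. Without that library the rise of Hes6 in DKO at CT16 was 0.39 ± 0.07 and was still called.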

How the results depend on the processing

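Over 50 values of the 10 genes and 1240 refits, 1161 kept their direction and call, 7 lost a call, 21 gained one and 51, over 21 of the values, changed sign. None of those 51 was called in the reported fit or in the refit. The number of genes called at CT16 between genotypes (2) and in the interaction (0) stood within 1.5 times under all alternatives. At CT4 it was 0 and became 1 with DESeq2, 2 with limma voom, 2 without the 3 libraries that stand apart and 2 in the fit on the compared groups alone. Over all tested genes these fits called 3.59, 5.02, 3.57 and 5.12%, against 1.28% as reported. For night against day in control the number was 3 and became 1 with the astrocyte score as a covariate, where 1.39% of all genes were called, against 4.21%. In DKO the number was 1 and became 3 with DESeq2, limma voom or without the 3 libraries, and 0 in the fit on the compared groups alone. Those fits called 5.6, 8.17, 6.98 and 0.287% of all tested genes, against 1.8%. Leaving out single libraries gave 0 to 1 at CT4, 2 to 3 at CT16, 2 to 3 in control and 1 to 5 in DKO, highest at CT4 and in DKO without DKO CT16 replicate 3. The causes were not tested.

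The replicate number shared by labels did not pair the libraries: 2 of 13 same-numbered pairs correlated above 0.1 in their deviations, and 3 of 13 best with their own number. With the replicate block, Hes1 in control was lost (-0.64 ± 0.16, adjusted p = 0.0528), no other call of the 10 changed, and 104, 503, 379, 159 and 1 genes were called in all in the 5 comparisons, against 217, 788, 712, 304 and 2. With single libraries left out, these totals ran from 16 (without control CT4 replicate 3) to 328 (without DKO CT16 replicate 3), from 380 to 1318 (without DKO CT16 replicates 2 and 1), from 235 (without control CT4 replicate 2) to 1057 (without DKO CT16 replicate 4), from 103 (without DKO CT4 replicate 2) to 1461 and from 1 to 298 (both highest without DKO CT16 replicate 3). They were 584, 1267, 1317, 874 and 360 with DESeq2, 849, 1182, 1856, 1381 and 422 with limma voom, 606, 419, 609, 1184 and 423 without the 3 libraries, and 828, 368, 889 and 47 in the fits on the compared groups alone. With the astrocyte score they were 360, 447, 235, 517 and 3, and with the 2 neuronal scores 82, 983, 302, 104 and 0; without a filter 6 genes had an interaction. RLE factors moved the median of all genes by at most 0.00528. Hes1, at 142 counts in its shallowest library, was the least covered of the 10.

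The changes of sign were as follows. With the scores for SCN neurons and neighbouring nuclei as covariates, the CT4 difference became -0.020 for Dll1, -0.071 for Hey1 and 0.074 for Rbpj, and that at CT16 0.033 for Jag1 and 0.031 for Hey1. Night against day became 0.31 for Hey2 and 0.14 for Rbpj in control and 0.0062 for Dll1 in DKO, and the interaction 0.12 for Notch1, 0.0041 for Dll1, 0.10 for Hey1 and -0.052 for Rbpj. With the astrocyte score, Notch1 and Notch2 became 0.025 and 0.021 at CT4, Dll1 and Hey2 0.021 and -0.028 at CT16, and Dll1, Hey2 and Rbpj -0.044, 0.28 and 0.051 by time in control. Without the 3 libraries, Notch1 and Notch2 became 0.083 and 0.022 at CT4, Hey2 -0.024 at CT16, Hey1 0.0069 by time in control, Notch2 -0.096 by time in DKO and the interaction of Hes6 -0.038. Notch2 by time in DKO became -0.011 with the replicate block and -0.021 with limma voom, and Notch1 at CT4 0.0032 with the stricter filter. With single libraries left out, the values at CT4 ran from -0.065 to 0.10 for Notch1, -0.035 to 0.024 for Notch2 and -0.028 to 0.12 for Hes1, and at CT16 from -0.17 to 0.015 for Jag1 and -0.15 to 0.035 for Hey1. By time they ran in control from -0.17 to 0.0059 for Hey1, -0.0016 to 0.15 for Dll1, -0.078 to 0.050 for Rbpj and -0.12 to 0.056 for Hey2, and in DKO from -0.032 to 0.056 for Notch2 and -0.13 to 0.0089 for Dll1. The interaction of Notch1 ran from -0.17 to 0.00063. The causes were not tested.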
